A study of Mus musculus with 6 samples.

Results

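The 35 genes described here encode the enzymes and transporters of glycolysis and of the pentose phosphate pathway, together with a few genes that feed, regulate or branch from them. They were chosen by name for their place in the pathway, with no threshold on a measured value, and make up 35 of the 26128 genes counted. RNA was sequenced from 6 libraries of mouse double negative T (DNT) cells, which carry the T cell marker CD3 but neither CD4 nor CD8. The cells were made in culture from CD4+CD25- T cells of adult wild type C57BL/6 mice (spleen by the labels, spleen and lymph nodes by the methods) with mature dendritic cells of DBA/2 mice and IL-2, and were then sorted as CD3+NK1.1-CD4-CD8- cells. In both groups the sorted cells were restimulated for 48 h with beads that carry antibodies to CD3 and CD28, in 3 control libraries without IL-33 and in 3 libraries with IL-33, a cytokine of the IL-1 family, at 50 ng/ml. The comparison asks which of these genes differed in RNA level when IL-33 was present. All 6 libraries are of cells converted and restimulated in vitro, and resting cells were not measured. The labels do not say whether the replicates came from separate mice or cultures, so the p values measure only the spread between these libraries, which may be technical.

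Glycolysis splits glucose into pyruvate in the cytosol and yields ATP. Activated T cells are known to take up more glucose and to turn much of the pyruvate into lactate even with oxygen at hand. The pentose phosphate pathway branches off at glucose-6-phosphate, its oxidative arm makes NADPH and its non-oxidative arm makes ribose-5-phosphate for nucleotides and returns carbon to glycolysis. Most steps are served by several genes that encode isoforms with their own tissue patterns and control.

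The libraries held 20256342 to 22336050 counts each, and a total of 3 counts corresponded to 0.135 to 0.148 CPM, which is counts scaled to a common library size of 1000000. All 35 genes passed the filter on low counts and were among the 14671 genes tested. The T cell identity was seen in all libraries, with 10 of 10 T cell genes listed. Their summed levels were 3457 to 3570 CPM in control and 3503 to 3606 CPM in IL-33 libraries. At an edgeR adjusted p under 0.05, 1 of the 10 was higher and 4 were lower, beside 13.6% and 13.9% of all genes tested. Cd3g was higher (log2 fold change 0.13), and Cd5 (-0.43), Lat (-0.26), Lck (-0.17) and Cd2 (-0.16) were lower. Cd4 stood at 0.73 to 1.08 CPM in control and 0.23 to 0.51 CPM in IL-33 libraries. Cd8a, against which the cells were sorted, stood far higher, at 535 to 561 CPM in control and 393 to 410 CPM in IL-33 libraries. Cd8b1, the other chain of CD8, was at 8.12 to 11.4 CPM and 14.04 to 18.08 CPM. Klrb1c, which encodes NK1.1, was at 30.53 to 35.04 CPM in control and 24.5 to 26.8 CPM in IL-33 libraries. Of these 4 genes 1, Cd8b1, was higher and 3 were lower at an edgeR adjusted p under 0.05. The summed level of 13 listed dendritic and myeloid markers of 14 was lower with IL-33, at 76.1 to 83.4 CPM against 99.0 to 102 CPM. The list went both ways, since Itgax was at 52.2 to 55.8 CPM in control and 24.7 to 27.8 CPM with IL-33, while H2-Ab1 (22.8 to 26.6 against 29.7 to 31.5 CPM) and Batf3 (0.98 to 2.36 against 2.79 to 4.67 CPM) were higher, and Lyz2 and Flt3 were at or near 0 in all libraries. Of its 7 tested genes 2 were higher and 2 lower, with a median log2 fold change of 0.29. Mast cell and basophil markers, 10 listed of 12, summed to 39.8 to 43.4 CPM in control and 28.6 to 33.4 CPM in IL-33 libraries, of which Cma1 (20.8 to 24.2 against 16.4 to 20.8 CPM) and Cpa3 (9.23 to 13.2 against 6.39 to 7.47 CPM) made up most and were called lower, while Mcpt1, Mcpt2 and Tpsb2 were at or near 0. B cell markers, 5 listed of 7, summed to 8.35 to 9.15 CPM and 6.53 to 8.33 CPM, and red cell markers, 2 listed of 5, to at most 0.456 CPM. Of the 3 B cell markers tested, Blk was called lower (2.92 to 3.84 against 1.00 to 1.76 CPM). Cd79a and Cd79b did not pass, with log2 fold changes of -0.20 and 0.26. The part of these differences in the results below was not tested. In RNA from whole cultures, fewer cells that express a gene and less RNA per cell cannot be told apart.

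With IL-33, most genes of glycolysis rose by a modest amount, while the pentose phosphate genes moved less. Of the 35 genes, 22 were higher and 1 was lower at an edgeR adjusted p under 0.05, and 12 did not pass. Among all genes tested, 13.6% were higher and 13.9% were lower by the same rule. At an unadjusted p under 0.05 in edgeR, Slc16a1, Pfkfb4 and G6pdx were higher too and no further gene was lower. DESeq2 called 22 of the 35 higher and 0 lower, beside 1480 higher and 1551 lower of all genes (1999 and 2037 in edgeR). The median log2 fold change of the 35 genes was 0.25, beside -0.00063 over all genes tested. In 25 of them all 3 IL-33 libraries lay above all 3 control libraries, and in 1 gene all lay below, against 19.4% and 19.5% of all genes tested. The 35 genes took 1.35% ± 0.034 of all counts in control libraries and 1.62% ± 0.032 in IL-33 libraries (SD, n = 3 each), and the ranges did not overlap.

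Only 4 of the 35 genes also passed a change of 1.5-fold, the threshold used by the study, and all 4 were higher (2.47% of all genes tested were higher and 2.39% lower past both thresholds). They encode the glucose transporter GLUT1 (Slc2a1), hexokinase 2 (Hk2), aldolase C (Aldoc) and enolase 2 (Eno2). Slc2a1 (ENSMUSG00000028645, chr4:119108711-119137983, plus strand) was at 154.0, 138.3 and 151.2 CPM in the control libraries and at 226.9, 231.0 and 214.9 CPM with IL-33. All 3 IL-33 libraries lay above the control range, with a log2 fold change of 0.60 ± 0.037 (SE), a fold of 1.52 (edgeR adjusted p = 1.42e-25). This was just past the fold threshold, and leaving out control replicate 2 or IL-33 replicate 2 gave 0.56 or 0.58, both under it. Hk2 (ENSMUSG00000000628, chr6:82725025-82774454, minus strand) was at 63.0, 47.7 and 56.6 CPM in control and at 87.9, 94.3 and 94.3 CPM in IL-33 libraries. It rose 1.65-fold, and the groups were apart (log2 fold change 0.72 ± 0.096, edgeR adjusted p = 0.00141). Aldoc (ENSMUSG00000017390, chr11:78322968-78327781, plus strand) was at 86.5, 98.7 and 110.4 CPM in control and at 176.1, 189.6 and 179.2 CPM in IL-33 libraries. Its rise of 1.84-fold was larger than that of any other gene of the list apart from Eno2 (log2 fold change 0.88 ± 0.095, edgeR adjusted p = 0.00172). Eno2 (ENSMUSG00000004267, chr6:124760053-124769673, minus strand), known as the neuronal enolase, was at 1.60, 1.38 and 1.51 CPM in control and at 5.58, 3.29 and 4.01 CPM with IL-33. The groups were apart, but the level was low and the spread between IL-33 libraries wide (log2 fold change 1.52 ± 0.23, fold 2.86, edgeR adjusted p = 3.89e-08). In a test against the fold threshold itself, 1 of these 4 genes, Eno2, passed.

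**Figure D1:**
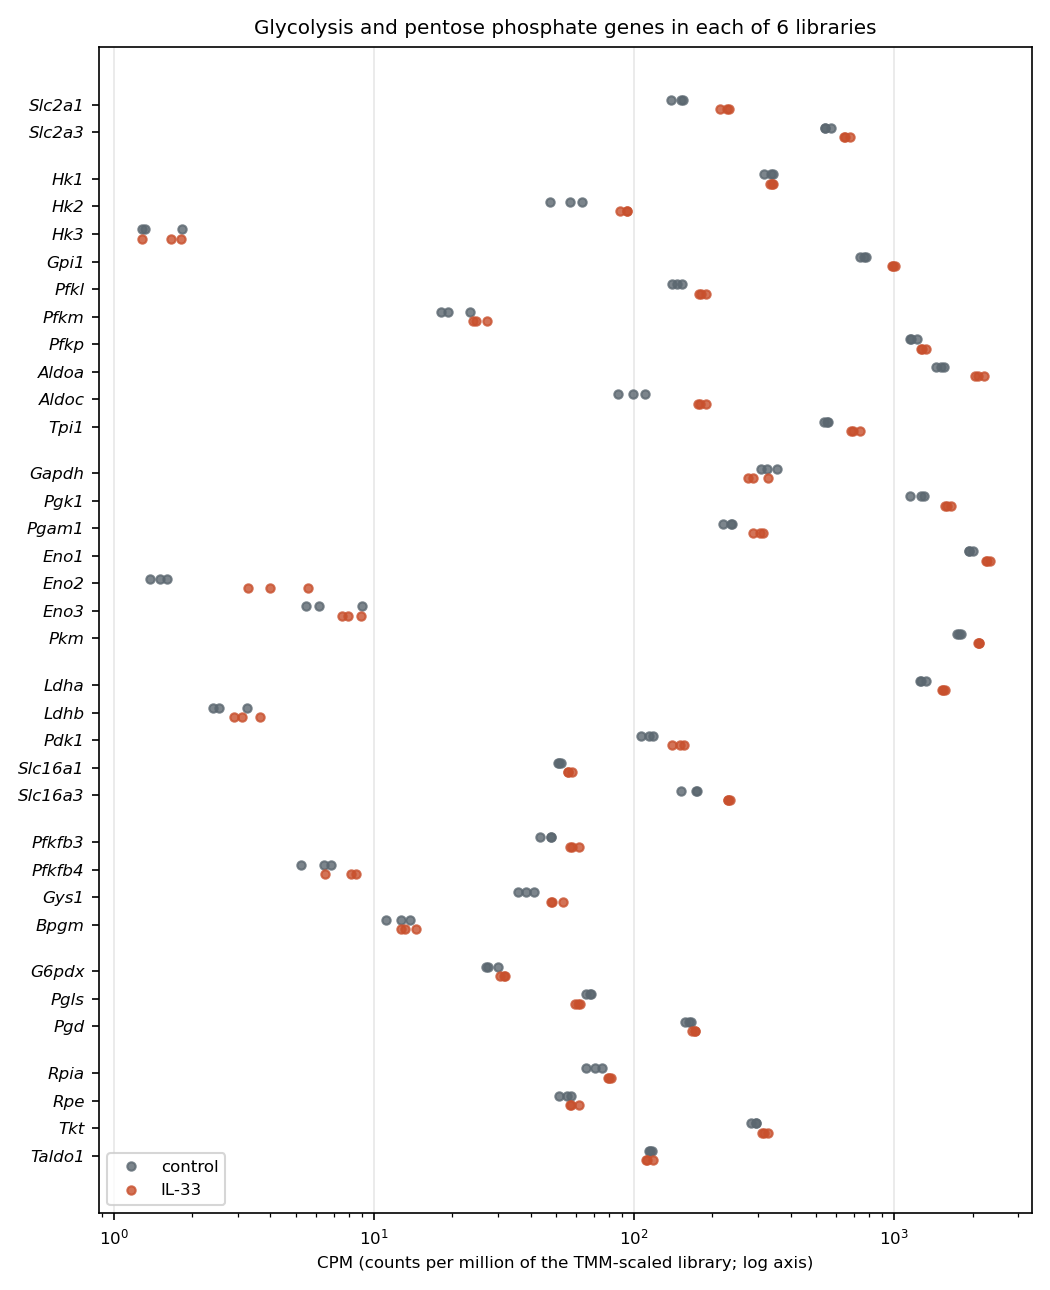
Level of each of the 35 genes in each library, in CPM on a log axis, with control libraries in grey and IL-33 libraries in orange and genes ordered by step from glucose entry at the top to the pentose phosphate pathway at the bottom. CPM is not corrected for gene length, so points are to be compared within a gene; the groups are widest apart for Eno2 (1.38 to 1.60 against 3.29 to 5.58 CPM) and overlap for genes such as Hk1, Gapdh and Taldo1.

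The sequences in front of the start sites are shown for the 4 genes past both thresholds, with Hk1 and Ldha. Hk1 is a hexokinase gene that did not pass the test, and the window of Ldha held the most matches among these 6 genes. Many glycolysis genes are known targets of the hypoxia-inducible factor HIF-1, which binds DNA at ACGTG or GCGTG, and of Myc, which binds the E-box CACGTG. The 250 bases before the start site are from RefSeq (GRCm38.p6), written 5′ to 3′ on the strand of the gene, with matches to ACGTG or GCGTG on either strand in capitals. An E-box CACGTG counts as 2 overlapping matches.
Slc2a1, chr4:119108495-119108744, plus strand: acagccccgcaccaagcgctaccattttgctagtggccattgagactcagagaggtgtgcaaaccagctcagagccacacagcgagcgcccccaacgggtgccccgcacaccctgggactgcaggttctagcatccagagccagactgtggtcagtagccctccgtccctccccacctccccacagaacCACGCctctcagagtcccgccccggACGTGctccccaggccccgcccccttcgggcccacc
Hk2, chr6:82774455-82774704, minus strand: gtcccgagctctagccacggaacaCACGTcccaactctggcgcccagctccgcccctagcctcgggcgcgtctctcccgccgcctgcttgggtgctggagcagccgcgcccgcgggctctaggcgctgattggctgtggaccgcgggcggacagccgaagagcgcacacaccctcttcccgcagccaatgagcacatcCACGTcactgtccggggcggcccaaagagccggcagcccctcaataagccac
Hk1, chr10:62340422-62340671, minus strand: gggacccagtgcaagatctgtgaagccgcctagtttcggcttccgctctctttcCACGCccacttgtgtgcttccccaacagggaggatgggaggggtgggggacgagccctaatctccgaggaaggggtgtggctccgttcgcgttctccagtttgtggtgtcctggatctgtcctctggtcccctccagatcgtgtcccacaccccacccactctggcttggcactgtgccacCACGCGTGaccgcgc
Aldoc, chr11:78322823-78323072, plus strand: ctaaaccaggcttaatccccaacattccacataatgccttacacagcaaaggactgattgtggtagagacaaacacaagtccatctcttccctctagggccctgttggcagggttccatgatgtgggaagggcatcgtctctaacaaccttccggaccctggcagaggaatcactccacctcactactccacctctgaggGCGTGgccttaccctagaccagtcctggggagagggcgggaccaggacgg
Eno2, chr6:124769674-124769923, minus strand: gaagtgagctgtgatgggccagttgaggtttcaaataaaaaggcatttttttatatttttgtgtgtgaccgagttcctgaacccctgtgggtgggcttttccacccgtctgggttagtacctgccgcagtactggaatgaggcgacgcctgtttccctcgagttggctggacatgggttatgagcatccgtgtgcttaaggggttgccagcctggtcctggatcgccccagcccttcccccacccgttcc
Ldha, chr7:46845554-46845803, plus strand: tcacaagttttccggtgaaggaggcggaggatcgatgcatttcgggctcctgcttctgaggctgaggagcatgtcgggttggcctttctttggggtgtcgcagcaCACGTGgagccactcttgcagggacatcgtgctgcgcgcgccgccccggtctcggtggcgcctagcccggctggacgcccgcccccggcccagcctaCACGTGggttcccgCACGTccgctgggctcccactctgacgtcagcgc

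Of these 250-base stretches, those of Slc2a1 and Hk2 held 2 matches each, that of Aldoc 1, that of Hk1 3 and that of Ldha 5, within which lay 2 E-boxes. No match lay in the stretch of Eno2, the gene with the largest fold change, which says only that these letters are not in this window. Windows of 300 bases, 250 before and 50 after each start, were given for 34 of the 35 genes. Slc2a3 had none. A match to ACGTG or GCGTG was in 28 of the 34 genes (82.4%) and in 36 of their 48 windows (75.0%), and 46.7% of 27025 genes and 43.8% of 32851 windows held one. The windows of the 35 genes also had more G and C, with a median of 60.3% against 52.7%, and the part of base composition was not tested. CACGTG was in 4 of the 34 genes (11.8%), against 8.09% of all genes. Some genes have several start sites. Hk1 had 5 matches in the 300-base window whose sequence is shown and 0 in its other window, and the 1 window of Hk2 had 2. The 300-base windows of the other sequences shown had 2 for Slc2a1, 3 for Aldoc, 7 for Ldha and 0 for Eno2. Aldoc and Ldha each had another window, with 1 and 2 matches.

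Both transporters for glucose entry rose. Beside Slc2a1, the other was Slc2a3, which encodes the high-affinity transporter GLUT3. Slc2a3 was at 539.9, 540.0 and 569.3 CPM in control and at 638.9, 678.9 and 645.0 CPM with IL-33 (log2 fold change 0.25 ± 0.027, edgeR adjusted p = 3.32e-13). The groups did not overlap for either gene, but Slc2a1 rose more. Per kilobase of exon, Slc2a3 was the more abundant, and Slc2a1 made up 35.7% ± 1.26 of the sum of both in control and 41.5% ± 0.79 in IL-33 libraries.

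In upper glycolysis, which carries glucose to the triose phosphates, 8 of 10 genes rose and none fell, with a median log2 fold change of 0.34. The exceptions were 2 of the 3 hexokinases, the enzymes that trap glucose as glucose-6-phosphate. Hk1, the main form here, was at 336.5, 317.3 and 341.4 CPM in control and at 341.1, 332.6 and 339.0 CPM with IL-33. The groups overlapped, and the log2 fold change of 0.025 had a 95% interval from -0.036 to 0.086 (edgeR adjusted p = 0.596). Hk3 was near the bottom of the range of the 35 genes, at 1.84, 1.28 and 1.32 CPM and at 1.81, 1.29 and 1.67 CPM (log2 fold change 0.10, 95% interval -0.49 to 0.70, edgeR adjusted p = 0.841). Its few counts left a wide interval. Per kilobase, Hk2 made up 19.2% ± 1.68 of the hexokinase RNA in control and 27.9% ± 1.04 in IL-33 libraries, and Hk1 80.0% ± 1.80 and 71.4% ± 0.92.

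Gpi1, which encodes the isomerase between glucose-6-phosphate and fructose-6-phosphate, was at 736.0, 764.3 and 780.7 CPM in control and at 986.6, 1008 and 978.8 CPM with IL-33. The IL-33 libraries were all above (log2 fold change 0.38 ± 0.025, edgeR adjusted p = 1.73e-25). Gpi1 shares 741 exonic bases with Gm26762 on the opposite strand. Phosphofructokinase, the main point of control of glycolysis, is encoded by 3 genes, and all 3 rose. Pfkp, the platelet form, was at 1154, 1155 and 1218 CPM in control and at 1275, 1326 and 1267 CPM with IL-33, the smallest rise among the glycolysis genes that passed (log2 fold change 0.13 ± 0.024, edgeR adjusted p = 2.87e-06). Pfkl, the liver form, was at 152.6, 140.3 and 146.7 CPM and at 177.8, 181.5 and 188.5 CPM (log2 fold change 0.32 ± 0.037, edgeR adjusted p = 4.35e-12). Pfkm, the muscle form, was at 19.3, 23.4 and 18.1 CPM and at 24.0, 27.1 and 24.8 CPM (log2 fold change 0.32 ± 0.084, edgeR adjusted p = 0.00167). For Pfkp, Pfkl and Pfkm the 3 IL-33 libraries lay above the control range. Pfkp shares 748 exonic bases with Pitrm1 on the opposite strand, and whether the strand was used in counting is not stated. Pfkm shares 341 exonic bases on its own strand with Gm26513, which held 95 counts in all, beside 2918 on Pfkm. It also shares 18 with Senp1 on the opposite strand, which held 14085 counts.

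Aldolase splits fructose-1,6-bisphosphate, and Aldoa is its main form in most tissues. Aldoa was at 1450, 1517 and 1556 CPM in control and at 2106, 2208 and 2038 CPM with IL-33, with no overlap (log2 fold change 0.49 ± 0.026, edgeR adjusted p = 3.09e-16). Aldoc rose more than Aldoa, but per kilobase Aldoa still made up 94.5% ± 0.45 of both in control and 92.9% ± 0.17 in IL-33 libraries. Tpi1, which encodes triosephosphate isomerase, was at 549.4, 535.4 and 558.6 CPM and at 691.6, 738.3 and 684.5 CPM, again without overlap (log2 fold change 0.36 ± 0.027, edgeR adjusted p = 2.53e-21).

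In lower glycolysis, from the triose phosphates to pyruvate, 5 of 7 genes rose and none fell, with a median log2 fold change of 0.25. Pgk1, whose enzyme makes ATP, was at 1155, 1270 and 1297 CPM in control and at 1563, 1651 and 1593 CPM with IL-33 (log2 fold change 0.37 ± 0.045, edgeR adjusted p = 5.86e-04). Pgam1, the phosphoglycerate mutase, ran from 219.1 to 238.5 CPM in control and from 287.5 to 312.0 CPM with IL-33 (log2 fold change 0.38 ± 0.033, edgeR adjusted p = 3.69e-17). Neither of these 2 genes overlapped between the groups. Eno1, the common form of enolase, was at 1932, 1934 and 2007 CPM and at 2278, 2326 and 2255 CPM (log2 fold change 0.22 ± 0.021, edgeR adjusted p = 3.56e-16). Eno3, the muscle form, was at 5.47, 6.15 and 9.03 CPM and at 8.93, 7.54 and 7.97 CPM. Its groups overlapped through control replicate 3, and it did not pass (log2 fold change 0.24, 95% interval -0.048 to 0.53, edgeR adjusted p = 0.229). Despite the rise of Eno2, Eno1 made up 98.8% ± 0.26 of enolase RNA per kilobase in control and 98.7% ± 0.16 in IL-33 libraries, and Eno2 0.086% ± 0.0068 and 0.21% ± 0.059. Pkm, whose pyruvate kinase makes ATP in the last step, was at 1742, 1768 and 1813 CPM and at 2114, 2127 and 2106 CPM. All IL-33 libraries were above (log2 fold change 0.25 ± 0.021, edgeR adjusted p = 6.40e-19). The counts per gene do not separate the M1 and M2 forms of Pkm, which differ by splicing. Pkm also shares 767 exonic bases on its own strand with Gm49759, which held 7242 counts in all, beside 249504 on Pkm.

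**Figure D2:**
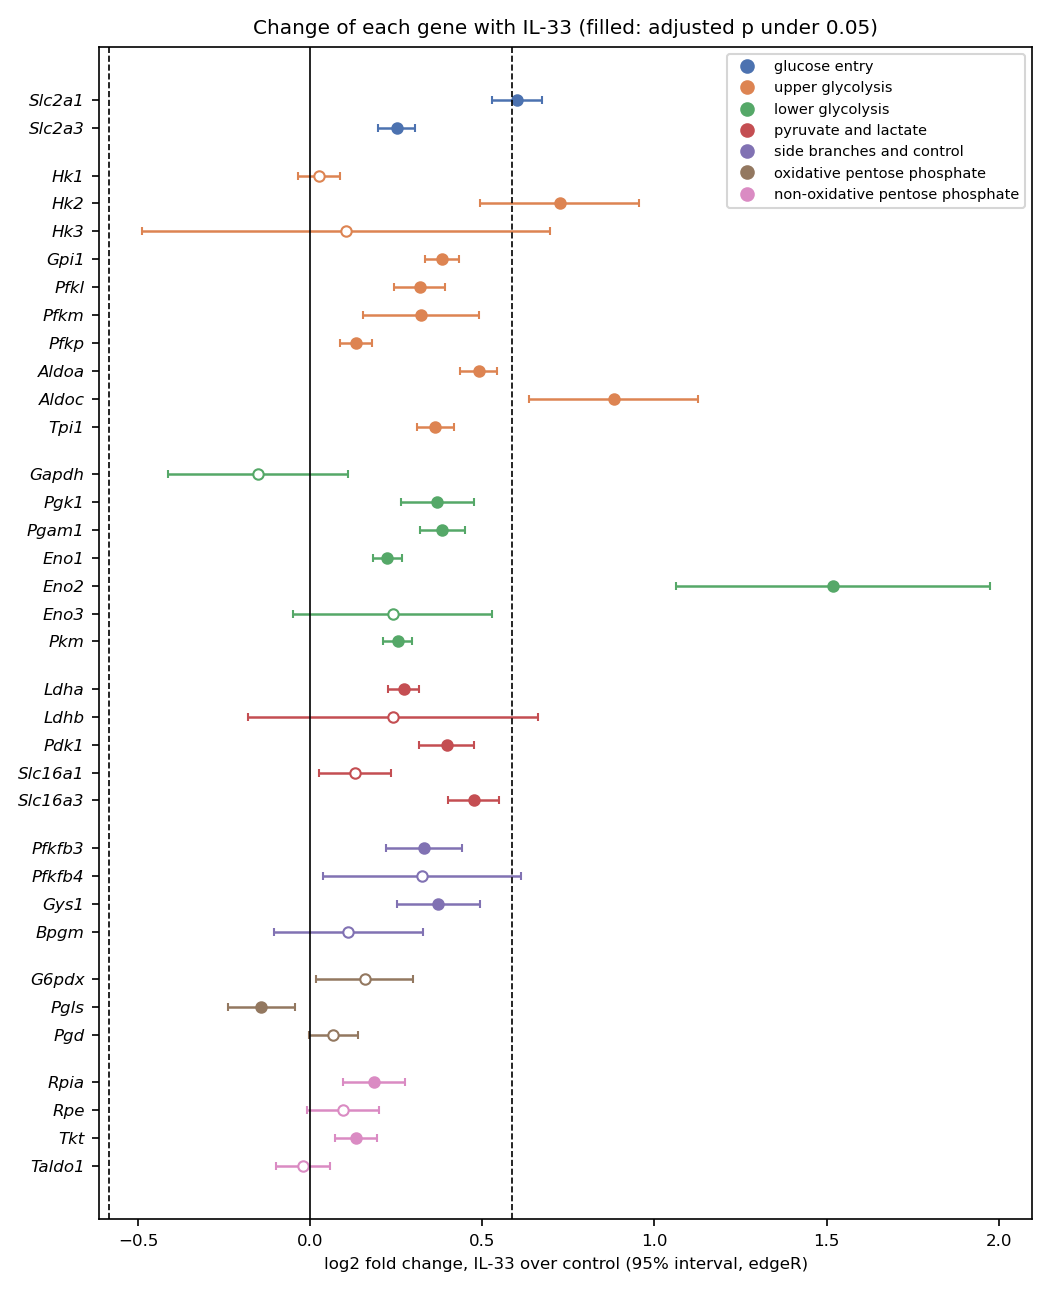
Log2 fold change with IL-33 over control for each of the 35 genes with its 95% interval from edgeR, coloured by step; filled circles have an adjusted p under 0.05 and dashed lines mark changes of 1.5-fold in either direction. Of the 28 genes outside the pentose phosphate pathway 20 are filled to the right of 0, and of its 7 genes 2 are filled to the right and 1, Pgls, to the left.

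The exception in lower glycolysis that lay below 0 was Gapdh, which encodes the dehydrogenase of glyceraldehyde-3-phosphate and is often used as a reference gene in PCR. Gapdh (ENSMUSG00000057666, chr6:125161715-125166467, minus strand) was at 325.4, 307.9 and 353.8 CPM in control and at 286.7, 328.3 and 273.9 CPM with IL-33. The groups overlapped, and it did not pass (log2 fold change -0.15, 95% interval -0.41 to 0.11, edgeR adjusted p = 0.352). Without IL-33 replicate 2 the same value was -0.23 and passed (edgeR adjusted p = 7.99e-05). Gapdh is unlike the other 34 genes in how far its reads could be counted elsewhere. The GENCODE annotation holds 180 other loci with transcripts at least 90% identical to that of Gapdh over at least 200 bases, of which 98 were listed and took 52494 counts over the 6 libraries, beside 40055 counts on Gapdh itself. These loci took 49.8% to 53.7% of the counts of Gapdh and its copies together in control libraries and 60.2% to 62.2% in IL-33 libraries, with no overlap.

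Most of these counts fell on 3 processed pseudogenes, copies of the spliced RNA. Gm7336 (chr7:51746647-51747878), identical at 99.8% of 1232 aligned bases, was at 174.6, 191.3 and 187.4 CPM in control and at 228.6, 247.3 and 222.4 CPM with IL-33 (log2 fold change 0.34 ± 0.036, edgeR adjusted p = 5.15e-12). Gm5559 (chr5:95861714-95862715) went from 120.8 ± 3.40 to 154.8 ± 5.01 CPM (log2 fold change 0.36 ± 0.038, edgeR adjusted p = 1.35e-13). Gm13394 (chr2:28933610-28934609), identical at 99.9% of 1000 aligned bases, was at 16.3, 17.6 and 20.2 CPM in control and at 51.1, 58.9 and 47.0 CPM with IL-33. All 3 pseudogenes had IL-33 libraries above the control range, and Gm13394 rose the most (log2 fold change 1.54 ± 0.077, edgeR adjusted p = 8.77e-23). Cfap77, the gene in which Gm13394 lies, stayed at 0.045 to 0.48 CPM. With all copies added to Gapdh, a sum chosen after seeing the data, the level was 676.4 ± 25.1 CPM in control and 767.5 ± 52.0 CPM with IL-33, and the log2 fold change turned to 0.18 (edgeR adjusted p = 0.0327). From counts per gene, RNA of Gapdh and RNA of its copies cannot be told apart. For the other 34 genes near-identical copies held at most 5.41% of the counts of a gene and its copies, for Eno1, and adding them changed no call.

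**Figure D3:**
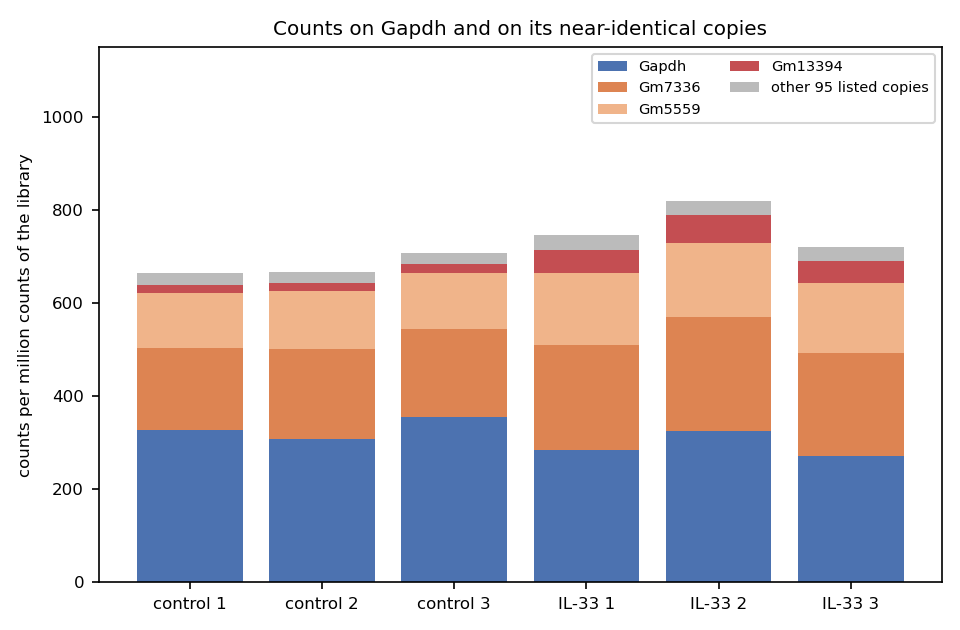
Counts on Gapdh and on its near-identical copies in each library, scaled to 1000000 counts of the library, stacked. The part on Gapdh itself overlaps between the groups, while Gm7336, Gm5559 and above all Gm13394 (2.47% to 2.86% of the stack in control, 6.49% to 7.14% with IL-33) are larger in the 3 IL-33 libraries.

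Of the 5 genes that handle pyruvate and lactate, 3 rose and none fell, with a median log2 fold change of 0.27. Ldha, the lactate dehydrogenase of activated T cells, was at 1257, 1265 and 1323 CPM in control and at 1540, 1571 and 1532 CPM with IL-33, all above the control range (log2 fold change 0.27 ± 0.023, edgeR adjusted p = 6.71e-19). Ldhb was at 2.54, 3.25 and 2.42 CPM and at 3.12, 2.91 and 3.65 CPM, which overlapped (log2 fold change 0.24, 95% interval -0.18 to 0.66, edgeR adjusted p = 0.444). Ldha made up 99.6% of the RNA of both per kilobase in each group. Slc16a3 encodes MCT4, a transporter that exports lactate. It was at 174.0, 152.1 and 172.9 CPM and at 233.3, 230.1 and 230.3 CPM (log2 fold change 0.47 ± 0.037, edgeR adjusted p = 9.28e-18). Slc16a1, which encodes the lactate transporter MCT1, was at 51.4, 51.0 and 52.4 CPM and at 55.9, 55.8 and 57.8 CPM. The 3 IL-33 libraries lay above the control range for both transporters, but Slc16a1 missed the threshold (log2 fold change 0.13, 95% interval 0.025 to 0.24, edgeR adjusted p = 0.0562). Pdk1, whose kinase blocks the entry of pyruvate into the TCA cycle, went from 113.1 ± 6.43 to 148.9 ± 8.04 CPM without overlap (log2 fold change 0.40 ± 0.041, edgeR adjusted p = 1.91e-13).

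Among the 4 genes of control and side branches 2 rose and none fell. Pfkfb3 and Pfkfb4 encode enzymes that set fructose-2,6-bisphosphate, an activator of phosphofructokinase. Pfkfb3 was at 48.2, 43.5 and 48.1 CPM in control and at 57.7, 61.3 and 56.9 CPM with IL-33, with no overlap (log2 fold change 0.33 ± 0.055, edgeR adjusted p = 5.06e-07). Pfkfb4 was at 6.41, 5.27 and 6.84 CPM and at 6.51, 8.54 and 8.19 CPM. It had nearly the same fold change, but its groups overlapped and it did not pass (log2 fold change 0.32, 95% interval 0.039 to 0.61, edgeR adjusted p = 0.0836). Gys1, the glycogen synthase, went from 38.5 ± 2.75 to 49.9 ± 2.94 CPM (log2 fold change 0.37 ± 0.061, edgeR adjusted p = 3.05e-07), and it shares 310 exonic bases with Ruvbl2 on the opposite strand. Ruvbl2 held 5871 counts in all, beside 5670 on Gys1. Bpgm, which makes 2,3-bisphosphoglycerate, overlapped between the groups at 12.5 ± 1.31 and 13.5 ± 0.94 CPM (log2 fold change 0.11, 95% interval -0.11 to 0.33, edgeR adjusted p = 0.5).

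In the oxidative arm of the pentose phosphate pathway none of 3 genes rose and 1 fell. G6pdx, which encodes the glucose-6-phosphate dehydrogenase that opens the arm, was at 27.0 to 29.9 CPM in control and 30.5 to 31.8 CPM with IL-33. The ranges did not overlap, but it missed the threshold (log2 fold change 0.16, 95% interval 0.018 to 0.30, edgeR adjusted p = 0.0862), and it shares 418 exonic bases with Ikbkg on the opposite strand. Ikbkg held 11112 counts in all, beside 3811 on G6pdx. Pgls, the lactonase of the next step, was the 1 gene of the 35 that fell, from 67.1 ± 1.71 to 60.8 ± 1.39 CPM (log2 fold change -0.14 ± 0.049, edgeR adjusted p = 0.0200). Its ranges, 65.2 to 68.4 and 59.3 to 62.1 CPM, did not overlap. The call on Pgls did not survive leaving out the control libraries numbered 1 or 2 (edgeR adjusted p = 0.0511 and 0.0846) or the IL-33 libraries numbered 1 or 3 (edgeR adjusted p = 0.108 and 0.0513), nor a fit with DESeq2 (adjusted p = 0.0613). Pgls also shares 776 exonic bases on its own strand with Fam129c, which held 681 counts in all. Pgd, whose enzyme yields NADPH and ribulose-5-phosphate, was at 157.3 to 166.3 CPM and 167.1 to 172.1 CPM, ranges that were narrowly apart (log2 fold change 0.068, 95% interval -0.0043 to 0.14, edgeR adjusted p = 0.163).

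In the non-oxidative arm 2 of 4 genes rose and none fell, by smaller amounts than most of glycolysis. Rpia, which encodes the isomerase that makes ribose-5-phosphate, went from 70.6 ± 4.79 to 80.3 ± 0.88 CPM (log2 fold change 0.19 ± 0.045, edgeR adjusted p = 6.52e-04). Tkt, the transketolase that links the arm back to glycolysis, went from 289.5 ± 7.64 to 317.6 ± 9.48 CPM (log2 fold change 0.13 ± 0.031, edgeR adjusted p = 3.76e-04). The IL-33 libraries lay above the control range for both. Rpe, the epimerase, was at 54.8 ± 2.91 and 58.5 ± 2.59 CPM (log2 fold change 0.095, 95% interval -0.011 to 0.20, edgeR adjusted p = 0.187). Rpe shares 558 exonic bases with Kansl1l on the opposite strand. Taldo1, the transaldolase, was at 115.6 ± 1.85 and 114.0 ± 4.04 CPM (log2 fold change -0.020, 95% interval -0.099 to 0.059, edgeR adjusted p = 0.759). Rpe and Taldo1 overlapped between the groups. Over the whole pentose phosphate pathway 2 of 7 genes rose and 1 fell, with a median log2 fold change of 0.095, beside 20 of 28 and a median of 0.32 for the other genes. This difference was not tested. Among all genes tested, 13.6% were higher and 13.9% were lower. The 1 that fell was Pgls, whose call was lost in several of the fits given above.

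Where several genes serve 1 step, their ratio within a library does not depend on how the libraries were scaled. In 6 of 11 pairs the ratios of the 2 groups did not overlap, and each of these gave p = 0.1 in a two-sided exact permutation test, the smallest p that 3 against 3 libraries allow. No adjustment over the 11 pairs could bring this under 0.05. How often ratios of other gene pairs lie apart was not computed, so the count of 6 has no background share beside it. As single genes, 19.4% of all genes tested had all IL-33 libraries above all control libraries, and 19.5% had them below. The log2 ratio of Eno2 to Eno1 was -10.2, -10.4 and -10.4 in control and -8.67, -9.46 and -9.13 with IL-33, a difference of 1.25. The log2 ratio of Hk2 to Hk1 was -2.42, -2.73 and -2.59 in control and -1.96, -1.82 and -1.85 with IL-33, a difference of 0.71. In both pairs the gene with fewer counts gained on the main form. The differences were 0.40 for Aldoc to Aldoa and 0.35 for Slc16a3 to Slc16a1. For Slc2a3 to Slc2a1 the difference was -0.35 and for Pfkp to Pfkl -0.18, so there the gene with more counts lost to the other. In the other 5 pairs the libraries overlapped, with differences of 0.079 for Hk3 to Hk1, 0.0088 for Pfkm to Pfkl, 0.048 for Eno3 to Eno1, -0.033 for Ldhb to Ldha and -0.0077 for Pfkfb4 to Pfkfb3 (two-sided exact permutation p from 0.9 to 1.0).

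**Figure D4:**
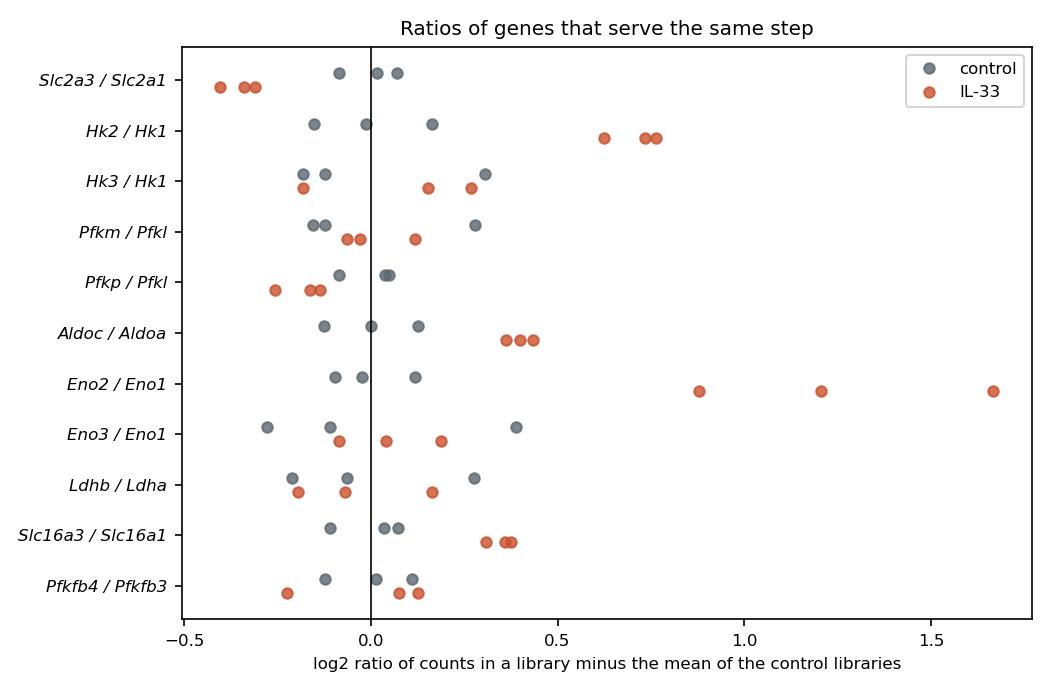
Log2 ratio of counts for pairs of genes that serve the same step, in each library, after subtracting the mean of the control libraries, with control in grey and IL-33 in orange. Eno2 to Eno1 (difference 1.25) and Hk2 to Hk1 (0.71) moved furthest to the right, and Slc2a3 to Slc2a1 (-0.35) furthest to the left.

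As levels per kilobase of exon, averaged over the 6 libraries, the list spanned from Pgk1, Aldoa and Ldha at the top to Eno2 and Hk3 at the bottom. Pgk1, at 633 CPM per kb, ranked 49 among the genes tested, Aldoa 51, Ldha 79, Eno1 89 and Pkm 92. The 5 top genes all serve steps from aldolase to lactate dehydrogenase, and all 5 rose. The hexokinases and phosphofructokinases ranked lower, with Pfkp at 460, Hk1 at 1235, Pfkl at 2108 and Hk2 at 4090. Lengths were summed over the exons of all annotated transcripts, which gave 13401 bases for Pfkp, 8532 for Hk1 and 2244 for Pgk1. Where the expressed transcript is shorter than this sum, the rank of the gene and its share within a step come out too low. How much this matters here was not tested. Of the pentose phosphate genes Taldo1 ranked highest at 873 and G6pdx lowest at 4911. Shares within steps moved by under 10 percentage points. The share of Slc16a3 over Slc16a1 went from 72.8% ± 1.33 to 77.3% ± 0.42, that of Pfkp among phosphofructokinases from 75.8% ± 0.94 to 73.4% ± 0.64, and that of Pfkfb3 over Pfkfb4 was 83.0% in both groups.

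**Figure D5:**
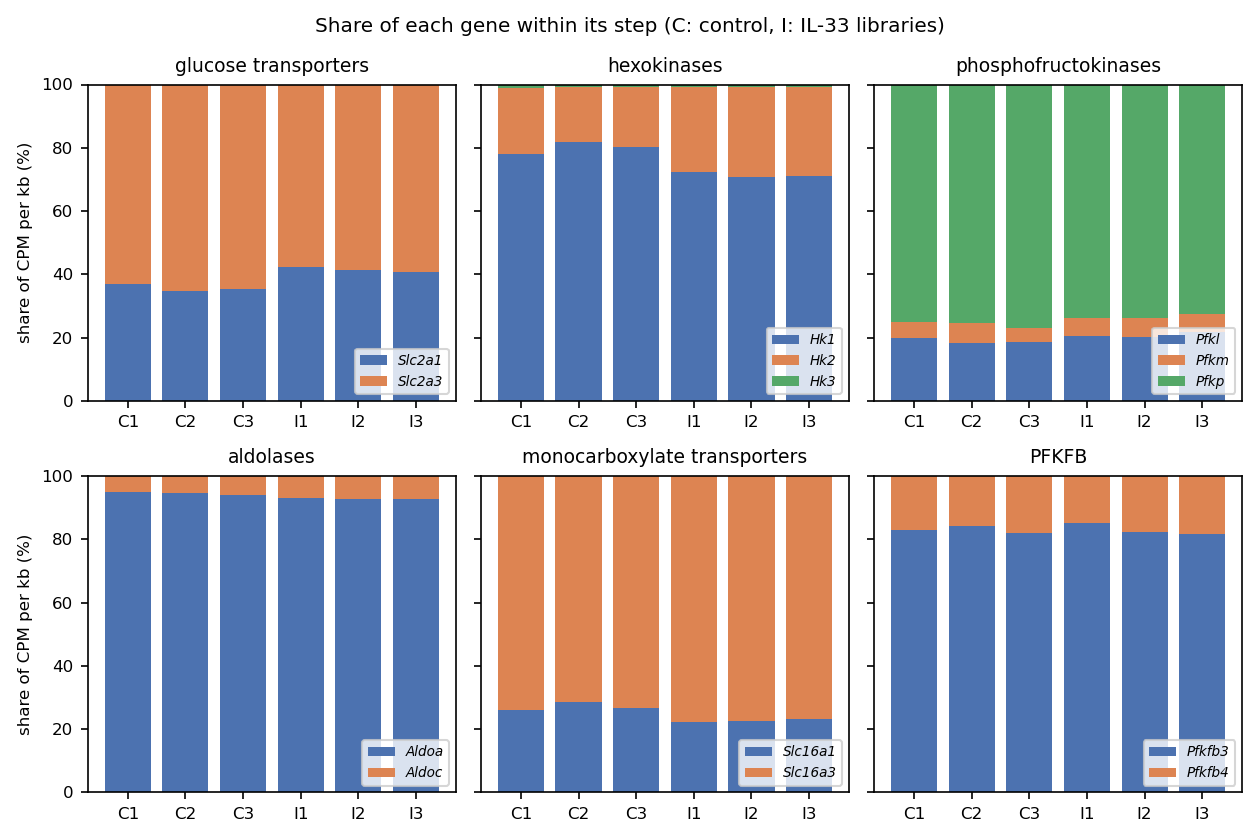
Share of each gene in the CPM per kilobase of its step, in percent, for each control (C1 to C3) and IL-33 (I1 to I3) library. Hk2 takes 17.5% to 20.9% of hexokinase RNA in control and 26.7% to 28.7% in IL-33 libraries, whereas the split of Pfkfb3 and Pfkfb4 overlaps between the groups.

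Of 10 factors that regulate these genes, 5 were higher with an edgeR adjusted p under 0.05, beside 13.6% of all genes tested, none was lower and none passed the fold threshold. Hif1a, the oxygen-sensitive subunit of HIF-1, was at 257.2 ± 8.67 and 269.0 ± 7.20 CPM with overlapping groups (log2 fold change 0.065 ± 0.032, edgeR adjusted p = 0.131). Its partner Arnt went from 57.4 ± 1.18 to 65.3 ± 1.86 CPM (log2 fold change 0.19 ± 0.050, edgeR adjusted p = 0.00216). Myc was at 55.4 ± 1.81 and 53.1 ± 1.18 CPM and did not pass (log2 fold change -0.060 ± 0.053, edgeR adjusted p = 0.445). Egln3 and Egln1 encode prolyl hydroxylases that mark HIF for degradation and are themselves known HIF targets. Egln3 was at 217.1, 190.6 and 225.2 CPM in control and at 280.9, 304.0 and 272.7 CPM with IL-33 (log2 fold change 0.44 ± 0.075, edgeR adjusted p = 0.00810), and Egln1 had a log2 fold change of 0.25. Txnip, which limits glucose uptake, and Mlxip, a glucose-sensing factor, rose by log2 fold changes of 0.24 and 0.23. Mlx, Egln2 and Vhl did not pass, at 0.089, 0.020 and 0.064.

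A further list of 55 genes held other isoforms and the genes of glycogen, of pyruvate entry into mitochondria and of other side branches. Of these 52 were listed and 36 tested, with 10 higher, 2 lower and a median log2 fold change of 0.029, beside 13.6% higher and 13.9% lower over all genes tested. Past both thresholds were 2, each higher, and both act on glycogen. Pygl, which encodes a glycogen phosphorylase, was at 11.02, 9.35 and 8.72 CPM in control and at 16.7, 18.7 and 19.9 CPM with IL-33 (log2 fold change 0.93 ± 0.11, edgeR adjusted p = 3.45e-12). Gbe1, the glycogen branching enzyme, was at 33.5, 40.9 and 41.9 CPM and at 61.6, 68.0 and 59.4 CPM (log2 fold change 0.70 ± 0.065, edgeR adjusted p = 3.12e-11). Neither overlapped between the groups. The 2 that were lower, named after their values had been seen, were Adpgk, which encodes an ADP-dependent glucokinase (log2 fold change -0.50 ± 0.085, edgeR adjusted p = 1.21e-06), and Gpd2, the mitochondrial glycerol-3-phosphate dehydrogenase (log2 fold change -0.11 ± 0.044, edgeR adjusted p = 0.0453).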

How the data were processed

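RNA sequencing data of 6 libraries of mouse DNT cells, 3 without and 3 with IL-33, were grouped by their labels. The authors deposited unnormalised read counts for each gene and library, and 1 column of signal, the mean of normalised counts over all libraries, which was not used in any test. The submitters' processing notes name Bowtie 0.12.2 and the build mm8 without saying for what, and the kit named in the labels differs from that in the paper. For the counting program and its use of strand, nothing was given in the sources used here. Positions, exons and lengths are from GENCODE M21 (GRCm38), matched by Ensembl identifier. The length of a gene sums the exons of all its transcripts, with shared bases counted once.

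Genes were filtered with edgeR 4.0.16 (filterByExpr, minimum count 10, minimum total count 15), scaled by TMM and compared by the two-sided quasi-likelihood test (robust, no covariates, R 4.3.3) with Benjamini-Hochberg adjustment over 14671 genes. Thresholds were an adjusted p of 0.05 and a 1.5-fold change (its log2 to 3 decimals). SDs are over n = 3 libraries, and 95% intervals come from the model. Ratios within a step used counts plus 0.5 and an exact permutation test. Replicates differed beyond sampling noise (chi-square of 2.64 to 3.67 per gene). The 35 genes were listed by pathway and not by their values, but they and the other lists were chosen with earlier results of these data known. Values of every library are given for genes past both thresholds, the 8 with the highest mean CPM and families of isoforms, all regulators are given, and of the further list those past both thresholds. Alternatives were DESeq2 1.42.0, limma-voom (limma 3.58.1), other size factors, other filters, a replicate block, a test against the fold threshold, libraries left out in turn, and the sum with near-identical copies found by BLAST. The fit was tested on simulated data.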

Additional observations from a re-analysis of the deposited data

How the results depend on the processing

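Over 13 alternatives, 443 of 455 values of the 35 genes had the same sign and the same call as in the main result, 5 no longer passed, 4 newly passed and 3 changed sign. The sign changes were Gapdh with its copies added (log2 fold change 0.18, an alternative chosen after seeing the data), and Hk1 and Taldo1, whose values with single libraries left out ran from -0.0062 to 0.046 and from -0.046 to 0.00087. The 22 genes that rose numbered 22 to 24 with a library left out, and the 4 past both thresholds 3 or 4. The count of genes that fell was 0 with DESeq2 and ran from 0 to 2 with a library left out. It was 0 without control replicate 1 or 2 or IL-33 replicate 1 or 3, where Pgls was lost, and 2 without IL-33 replicate 2, where Gapdh was added. Without control replicate 3, Eno3 (log2 fold change 0.49, edgeR adjusted p = 0.0166) and G6pdx (0.21, edgeR adjusted p = 0.0497) passed, and without IL-33 replicate 1 Pfkfb4 did (0.44, edgeR adjusted p = 0.0331). Tested against the fold threshold, 1 of the 4 genes passed, beside 75 higher and 38 lower of all genes (363 and 351 past both thresholds otherwise). The cause of these changes was not tested, apart from the stricter construction of the last test.

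The 5 ratios with overlapping groups changed sign with a library left out, running from -0.015 to 0.23 (Hk3 to Hk1), -0.069 to 0.15 (Pfkm to Pfkl), -0.091 to 0.24 (Eno3 to Eno1), -0.14 to 0.11 (Ldhb to Ldha) and -0.074 to 0.10 (Pfkfb4 to Pfkfb3), and the other 6 did not. With the replicate number as a block, the same 23 genes passed (22 higher, 1 lower), and the paired exact p of those 6 ratios was 0.25, the smallest that 3 pairs allow. The replicate block changed no call. Same-numbered libraries deviated from their group means with correlations of 0.0032 to 0.012, and differently numbered ones with -0.014 to 0.0029. The same-numbered values were the higher ones, but all were very small, so whether the numbers mark a pairing cannot be told from them. Depth limits Eno2, Hk3 and Ldhb, the genes with the lowest counts.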

Other observations

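Glycogen genes were grouped after their values had been seen, so their count supports no claim. Of 10 genes of glycogen synthesis and breakdown, 9 were tested, 6 were higher with IL-33 at an edgeR adjusted p under 0.05 and none was lower, with a median log2 fold change of 0.37. Beside Gys1, Gbe1 and Pygl these were Gyg, the primer protein of glycogen (114.7 ± 3.11 to 156.3 ± 4.09 CPM, log2 fold change 0.45), Ugp2, which makes UDP-glucose (0.21), and the phosphoglucomutase gene Pgm1 (0.53). Pygb, the phosphorylase gene with the highest level, was at 151.5 ± 1.15 and 160.4 ± 2.47 CPM and did not pass (log2 fold change 0.082, edgeR adjusted p = 0.0841). Gene counts alone do not show whether glycogen was made or used in these cells.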
